A study of Mus musculus with 8 samples.

Results

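The EGF receptor family and its ligands were examined as transcripts in club cell preparations, with 10 members: the receptors Egfr, Erbb2, Erbb3 and Erbb4 and the ligands Areg, Ereg, Hbegf, Tgfa, Btc and Nrg1. Members were found by gene symbol, through array probe sets annotated with exactly that symbol, and where a member had several the brightest was taken. This gave 9 members among 22180 genes with a name. No probe set carried the symbol Areg alone, so Areg was not analysed here. Ereg had 2 probe sets and each other member 1.

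Club cells are secretory cells of the airway lining. They were isolated from lungs of Atgl KO/cTg mice, which lack the triglyceride lipase Atgl (gene Pnpla2), and of wt/cTg mice, which have it. There were 4 arrays per genotype, each from RNA of 3 or 4 pooled mice, drawn from 16 mice without Atgl and from 14 mice with it, all aged 38 to 48 weeks and fed chow. All of them carry cTg, which the labels do not expand, and the labels state no treatment. Each replicate is therefore a pool. Pools are numbered 1 to 4 within a genotype only to name them, and the numbers pair nothing.

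Receptors of this family are tyrosine kinases of the cell surface that work in pairs. Egfr binds Tgfa, Areg, Ereg, Btc and Hbegf, Erbb3 and Erbb4 bind neuregulins such as Nrg1, Btc, Hbegf and Ereg also bind Erbb4, and Erbb2 has no known ligand and serves as a partner of the others. The ligands are made as precursors in the membrane and are released by proteases, among them Adam17. In the airway lining the family is known for its part in repair after injury and in mucin production. In the RefSeq annotation of GRCm38.p6 the ligand genes Epgn, Ereg, Areg and Btc are consecutive protein-coding genes on chromosome 5.

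Values are log2 signals, so a difference of 1 is a doubling, and every difference is given as Atgl KO/cTg minus wt/cTg. Signals of different probe sets cannot be compared as levels, so each gene is compared only with itself across pools. Genes with a mean signal at or below the median probe set (5.18) were not tested, which left 13112 genes and 8 of the 9 members, without Erbb4. Arrays correlated with each other at 0.965 to 0.985. The knocked-out gene Pnpla2 averaged 6.98 ± 0.20 in Atgl KO/cTg pools, against 8.70 ± 0.11 in wt/cTg pools, with no overlap (SD, n = 4 each; limma adjusted p = 0.000116). One pool stood apart. In wt/cTg pool 4 the signal of Xist, the RNA that coats the silenced X chromosome, was 3.75, against 9.34 to 10.67 in the other pools. The other measured sex-linked transcripts were highest in wt/cTg pool 4. Kdm5d read 7.05 there, against 5.27 to 6.51 in the other pools, and Eif2s3y 7.996, against 6.03 to 7.17. Uty, under the level filter, read 5.92, against 4.18 to 5.51. Whether the pools differed in the sex of their mice was not tested. The differences of Egfr, Erbb3, Nrg1 and the other ligands are also given without wt/cTg pool 4.

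None of the 8 tested members passed the limma test over all genes at an adjusted p under 0.05, where 0.0991% of all tested genes passed. None of the 8 had an unadjusted p under 0.05 either, against 7.95% of all tested genes. Groups of pools did not overlap for 1 of the 8, Btc, against 4.35% of all tested genes in either direction and 1.74% with Atgl KO/cTg above. The difference lay above 0 for 5 of the 8 (4 after quantile normalization or median centring, where Ereg turned), against 47.8% of all tested genes, and the median difference was 0.06 for the 8 members and -0.01 for all tested genes. Over the 9 measured members, differences ran from -0.14 to 0.24.

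**Figure D1:**
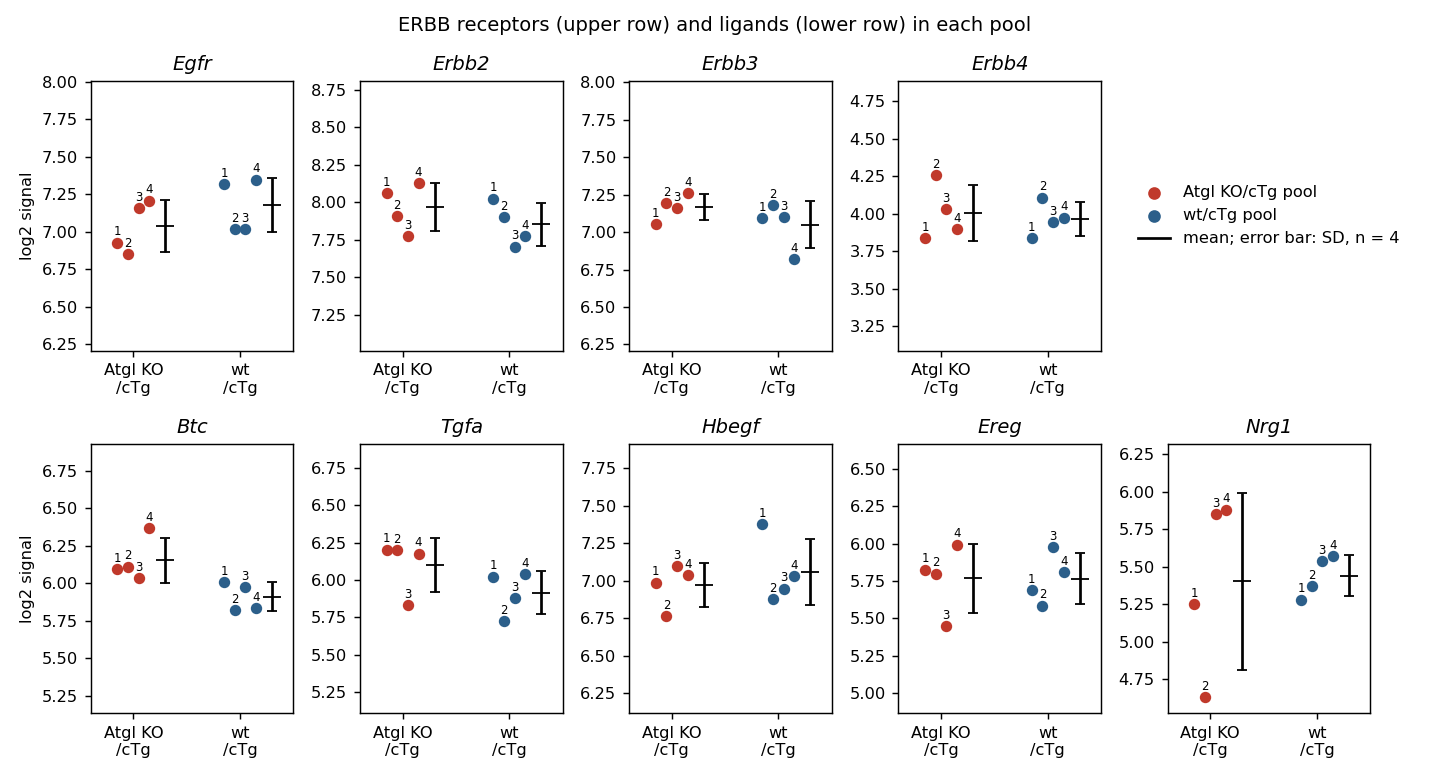
Log2 signal (vertical axis, the same span in every panel) of each measured receptor and ligand in the 4 Atgl KO/cTg pools (red, left) and the 4 wt/cTg pools (blue, right), with pool numbers above the points and the mean and SD in black. Pools of the genotypes overlap in every panel except Btc, where the lowest Atgl KO/cTg pool (6.03) lies just above the highest wt/cTg pool (6.01), and the Nrg1 points of Atgl KO/cTg spread from 4.63 to 5.88.

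Egfr, the receptor of EGF and most ligands measured here, read 6.93, 6.85, 7.16 and 7.21 in Atgl KO/cTg pools 1 to 4, against 7.32, 7.02, 7.02 and 7.35 in wt/cTg pools 1 to 4. The highest values were those of wt/cTg pools 1 and 4 and the lowest was that of Atgl KO/cTg pool 2, with the groups overlapping between 7.02 and 7.21. The log2 difference was -0.14 (SE 0.12, 95% interval -0.41 to 0.13, limma adjusted p = 0.826). An exact permutation test, two-sided and over all 70 ways to split the 8 pools, gave p = 0.371. Without wt/cTg pool 4 the difference was -0.08, and without Atgl KO/cTg pool 2 it was also -0.08.

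Erbb2, the partner receptor without a ligand of its own, read 8.06, 7.91, 7.77 and 8.13 in Atgl KO/cTg pools and 8.03, 7.90, 7.70 and 7.78 in wt/cTg pools. Pools 1 and 4 of Atgl KO/cTg and pool 1 of wt/cTg were high, and the groups overlapped over most of their range. Its difference was 0.11 (SE 0.11, 95% interval -0.12 to 0.35, limma adjusted p = 0.837, exact permutation p = 0.314), and it ran from 0.06 without Atgl KO/cTg pool 4 to 0.18 without Atgl KO/cTg pool 3.

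Erbb3, a neuregulin receptor with little kinase activity of its own, read 7.05, 7.19, 7.16 and 7.26 in Atgl KO/cTg pools and 7.10, 7.18, 7.10 and 6.82 in wt/cTg pools. Only wt/cTg pool 4 lay apart, below all other pools. The difference was 0.12 (SE 0.11, 95% interval -0.11 to 0.35, limma adjusted p = 0.826, exact permutation p = 0.257), and without that pool it was 0.04.

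Erbb4, the other neuregulin receptor, lay under the level filter, with a mean of 3.99, and was not tested. It read 3.84, 4.26, 4.03 and 3.90 in Atgl KO/cTg pools and 3.84, 4.11, 3.94 and 3.97 in wt/cTg pools. Those ranges overlapped almost fully. In the fit without a level filter its difference was 0.04 (95% interval -0.22 to 0.30, limma adjusted p = 0.970), and without Atgl KO/cTg pool 2 it was -0.04.

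Among the ligands, Btc (betacellulin), which binds both Egfr and Erbb4, stood out for the order of its pools. Btc read 6.09, 6.11, 6.03 and 6.37 in Atgl KO/cTg pools, against 6.01, 5.82, 5.98 and 5.83 in wt/cTg pools. Every Atgl KO/cTg pool lay above every wt/cTg pool, by 0.03 at the nearest pair. Atgl KO/cTg pools averaged 6.15 ± 0.15 and wt/cTg pools 5.91 ± 0.10 (SD, n = 4 each). The difference was 0.24 (SE 0.11, 95% interval -0.0039 to 0.49), a level 1.18 times that of wt/cTg. Btc did not pass over all genes (limma adjusted p = 0.631, unadjusted p = 0.0532), while the exact permutation p was 0.0286, the smallest that 4 against 4 pools can give. Without Atgl KO/cTg pool 4, the highest pool, the difference was 0.17, and without wt/cTg pool 4 it was 0.22 (limma adjusted p = 0.856).

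Tgfa (transforming growth factor alpha), an Egfr ligand of epithelial cells, read 6.20, 6.20, 5.83 and 6.18 in Atgl KO/cTg pools and 6.02, 5.73, 5.88 and 6.04 in wt/cTg pools. In Atgl KO/cTg pools 1, 2 and 4 it lay above every wt/cTg pool, while pool 3 lay among the wt/cTg pools. The difference was 0.19 (SE 0.13, 95% interval -0.09 to 0.46, limma adjusted p = 0.766, exact permutation p = 0.2). Without Atgl KO/cTg pool 3 it was 0.28, with a limma adjusted p of 0.625.

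Hbegf (heparin-binding EGF-like growth factor), a ligand of Egfr and Erbb4, read 6.99, 6.76, 7.10 and 7.04 in Atgl KO/cTg pools and 7.38, 6.88, 6.95 and 7.03 in wt/cTg pools. The Atgl KO/cTg pools lay within the wt/cTg range except pool 2, which was the lowest of all. Its difference was -0.09 (SE 0.13, 95% interval -0.37 to 0.20, limma adjusted p = 0.912, exact permutation p = 0.6), and 0.02 without wt/cTg pool 1.

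Ereg (epiregulin), a ligand of Egfr and Erbb4, was read by 2 probe sets that differed. The brighter one, used here, read 5.83, 5.80, 5.45 and 5.99 in Atgl KO/cTg pools and 5.69, 5.59, 5.98 and 5.81 in wt/cTg pools, with a difference of 0.0013 (95% interval -0.31 to 0.31, limma adjusted p = 0.999). The other one had a mean of 4.56, under the level filter, and read 4.73, 4.54, 4.58 and 4.84 in Atgl KO/cTg pools and 4.52, 4.27, 4.41 and 4.56 in wt/cTg pools. On it 3 Atgl KO/cTg pools lay above every wt/cTg pool, with pool 2 just below the highest of them, and the difference was 0.24 (exact permutation p = 0.0571). The value for Ereg thus depended on which probe set was read.

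Nrg1 (neuregulin 1), a ligand of Erbb3 and Erbb4, varied most between pools of one genotype. It read 5.25, 4.63, 5.85 and 5.88 in Atgl KO/cTg pools, against 5.28, 5.37, 5.54 and 5.57 in wt/cTg pools. Its SD was 0.59 over the Atgl KO/cTg pools and 0.14 over the wt/cTg pools, and Atgl KO/cTg pools 3 and 4 lay above and pools 1 and 2 below all wt/cTg pools. Its difference was -0.04 (SE 0.24, 95% interval -0.57 to 0.50, limma adjusted p = 0.987, exact permutation p = 0.914), and it was 0.22 without Atgl KO/cTg pool 2 and 0.0072 without wt/cTg pool 4.

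**Figure D2:**
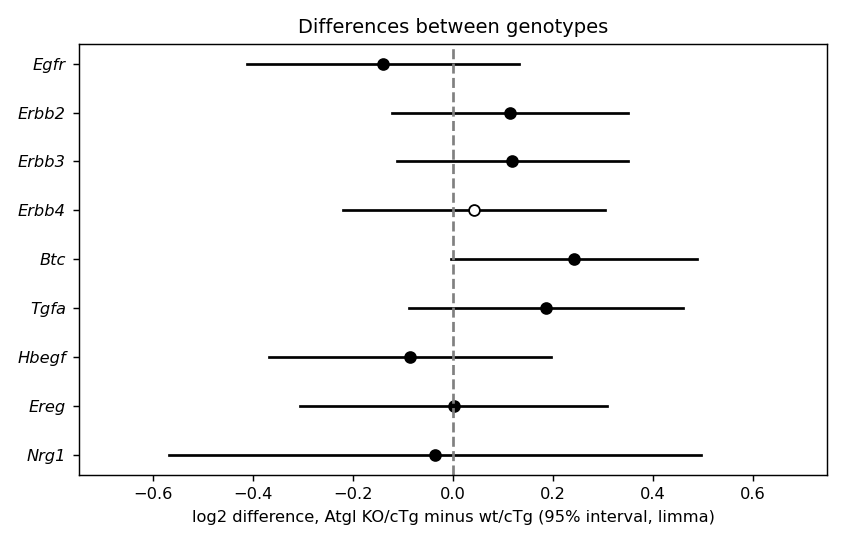
Log2 difference (Atgl KO/cTg minus wt/cTg, horizontal axis) of each measured receptor and ligand, with the 95% interval of limma over 4 pools per genotype. The open point, Erbb4, lies below the level filter and comes from the fit without it. Every interval includes 0, the lower end for Btc is -0.0039, and the widest is that of Nrg1, from -0.57 to 0.50.

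The intervals show what size of change in measured signal these pools leave possible, on the probe sets used and in mixed preparations. For the tested receptors Egfr, Erbb2 and Erbb3 they lie between -0.41 and 0.35, and for the tested ligands between -0.57 and 0.50. A change of 1 in log2 signal thus lies outside each of them. Nrg1 and Ereg, with mean signals of 5.42 and 5.77, lay not far above the level filter. Whether signal follows transcript amount in full at such levels was not tested. The other Ereg probe set, with a difference of 0.24, is not covered by these intervals. Changes inside these intervals were not resolved for the members.

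The preparations held transcripts of other lung cells, and some members followed these from pool to pool. Besides the club cell markers Scgb1a1 (12.92 in Atgl KO/cTg, 12.99 in wt/cTg) and Cyp2f2 (12.63 and 12.57), the type 2 cell marker Sftpc averaged 12.53 in Atgl KO/cTg, against 12.93 in wt/cTg. The endothelial marker Cdh5 averaged 9.91 in Atgl KO/cTg, against 10.32 in wt/cTg, and the mesothelial marker Upk3b 11.24 in Atgl KO/cTg, against 11.14 in wt/cTg. All 10 goblet cell markers (median difference 0.58) and all 7 tested neutrophil markers (0.56) were higher in Atgl KO/cTg, against 47.8% of all tested genes. None of these passed over all genes. Of the marker lists, 3 of 10 neutrophil markers and 4 of 8 basophil and mast cell markers lay under the level filter. So did 1 of 8 cardiac muscle markers and 1 of 7 measured basal cell markers. A lower share of a cell type and less RNA per cell cannot be told apart in such pools. For each list a marker score was taken as the mean log2 signal of its tested markers in a pool, and each of the 9 members was set against each of the 15 scores over 8 pools, which made 135 relations. The choice to do so was made after the data were seen. Adjusted over the 135, Pearson's r passed for 3 relations and Spearman's rho for 0, with 7 relations at an unadjusted Pearson p under 0.05.

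Egfr was high in pools with high endothelial scores. The endothelial score ran from 8.43 to 9.02 in Atgl KO/cTg pools and from 8.63 to 9.40 in wt/cTg pools, over 10 of 10 markers, with 7 of them lower in Atgl KO/cTg. Pearson's r with Egfr was 0.92 (exact permutation p = 0.000769, adjusted p = 0.048), and Spearman's rho was 0.93 (exact permutation p = 0.00223, adjusted p = 0.1). Without the 2 pools farthest from the median score, Atgl KO/cTg pool 2 and wt/cTg pool 4, r was 0.88, and whichever single pool was left out it ran from 0.89 to 0.96. On deviations from the genotype means r was 0.91. As strong a relation with this score was found for 0.496% of the other tested genes.

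The alveolar type 1 score gave a like relation with Egfr, with r = 0.87 (exact permutation p = 0.000744, adjusted p = 0.048), rho = 0.95 (exact permutation p = 0.00114, adjusted p = 0.1) and r = 0.92 without the same 2 pools. That score ran from 8.53 to 8.93 in Atgl KO/cTg and from 8.70 to 9.49 in wt/cTg, with 9 of 10 markers lower in Atgl KO/cTg. As strong a relation with the type 1 score was found for 1.26% of the other tested genes. The fibroblast and smooth muscle score, with r = 0.90 (exact permutation p = 0.00345), rho = 0.79 (exact permutation p = 0.0279) and r = 0.76 without the same 2 pools, did not pass over the 135 relations (adjusted p = 0.116 and 0.414). For this score 1.21% of the other tested genes had as strong a relation. The endothelial and type 1 scores were correlated with each other at r = 0.96, so these are not separate relations. The genes most like Egfr over the 8 pools were Hmcn1 (r = 0.99), Rab11a (r = 0.99) and Cxcl14 (r = 0.98), given as a description without a test.

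Erbb2 followed the mesothelial score instead, from 6 genes chosen as markers of the lining of the lung surface. They were Msln, Upk3b, Wt1, Lrrn4, Upk1b and Krt19, and how specific each is in these preparations was not tested. That score ran from 9.50 to 9.97 in Atgl KO/cTg pools and from 9.43 to 9.96 in wt/cTg pools. Pearson's r was 0.92 (exact permutation p = 0.00107, adjusted p = 0.048) and rho 0.93 (exact permutation p = 0.00223, adjusted p = 0.1). Without pool 3 of each genotype, the pools farthest from the median score, r was 0.92, and on deviations from the genotype means it was also 0.92. As strong a relation was found for 0.168% of the other tested genes.

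Btc was high in pools with high club cell scores and low in pools with high scores of heart muscle and of type 2 cells, whose 12 markers were all lower in Atgl KO/cTg. With the club cell score r was 0.88 (exact permutation p = 0.00441, adjusted p = 0.119) and rho 0.83 (exact permutation p = 0.0154, adjusted p = 0.346). It was 0.81 without the 2 pools farthest from the median score, 0.72 on deviations from the genotype means, and as strong for 0.206% of the other tested genes. With the type 2 score r was -0.75 (exact permutation p = 0.0222, adjusted p = 0.428) and rho -0.76 (exact permutation p = 0.0368, adjusted p = 0.414), falling to -0.45 without the 2 pools farthest from the median score and to -0.29 on deviations from the genotype means. With the cardiac muscle score r was -0.80 (exact permutation p = 0.00625, adjusted p = 0.141) and rho -0.90 (exact permutation p = 0.00456, adjusted p = 0.154), and r was -0.78 without the 2 pools farthest from the median score and -0.47 on deviations from the genotype means. As strong a negative relation was found for 1.54% of the other tested genes with the type 2 score and for 1.72% with the cardiac muscle score. The club cell score ran from 11.92 to 12.04 in Atgl KO/cTg and from 11.76 to 11.94 in wt/cTg, with 7 of 10 markers higher in Atgl KO/cTg, and the type 2 score from 10.21 to 10.51 in Atgl KO/cTg and from 10.64 to 11.12 in wt/cTg. The cardiac muscle score ran from 6.73 to 6.88 in Atgl KO/cTg and from 7.21 to 7.42 in wt/cTg, so that this score and the type 2 score each separated the genotypes, as Btc did. These scores were also correlated with each other, so these are not separate relations. Pearson's r was -0.89 between club cell and type 2, 0.90 between cardiac muscle and type 2, and -0.81 between club cell and cardiac muscle. The part of these scores in the order of the Btc pools was not tested. The genes most like Btc over the 8 pools were Gtse1 (r = 0.97), Mfsd4b4 (r = 0.95) and Scnn1a (r = 0.94), a subunit of the epithelial sodium channel.

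**Figure D3:**
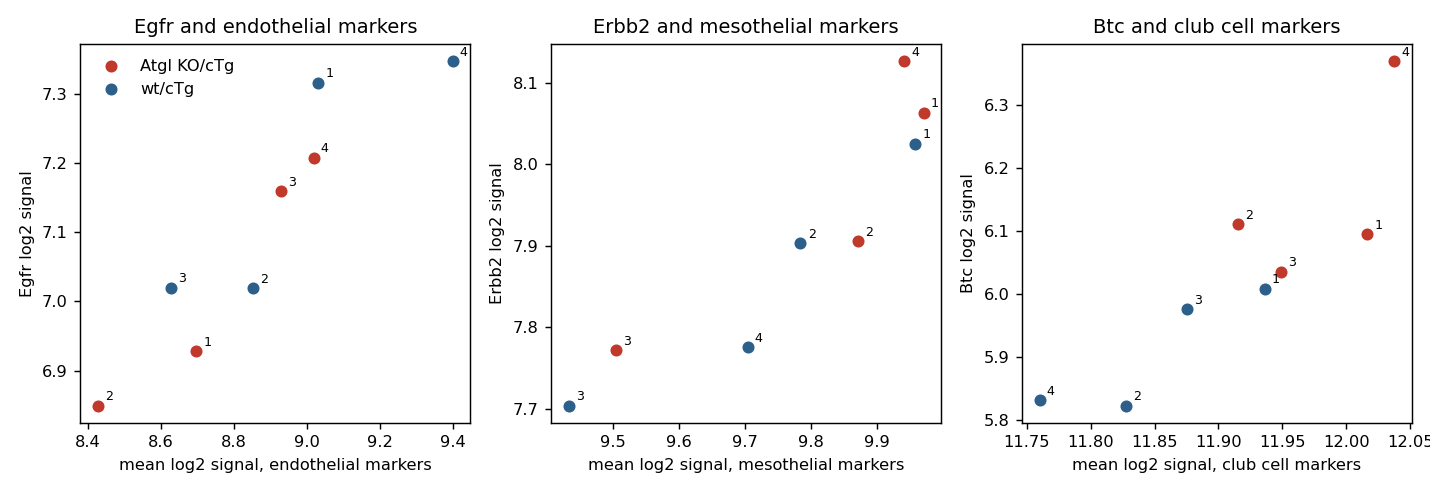
Log2 signal of Egfr, Erbb2 and Btc (vertical axes) against the mean log2 signal of endothelial, mesothelial and club cell markers (horizontal axes), 1 point per pool with its number, Atgl KO/cTg in red and wt/cTg in blue. Egfr is lowest in Atgl KO/cTg pool 2, which has the lowest endothelial score (8.43), and highest in wt/cTg pool 4, which has the highest (9.40), while Erbb2 is lowest in both pools numbered 3.

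The rest of the pathway was read from 5 lists of 90 genes, of which 84 had a probe set with that 1 symbol and 75 passed the level filter. Of these 75, 2 passed over all genes, Etv5 lower and Ptgs2 higher in Atgl KO/cTg, against 0.0991% of all tested genes. At an unadjusted p under 0.05 there were 13 of the 75, 5 higher and 8 lower, against 3.39% higher and 4.56% lower among all tested genes, and groups did not overlap for 8 of the 75, against 4.35% of all tested genes. The difference lay above 0 for 40 of the 75, against 47.8% of all tested genes, with a median of 0.01. Whether these shares differ from those of all genes was not tested.

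Of the other ligands, 2 of 5 passed the level filter and neither passed over all genes. Nrg4, an Erbb4 ligand, differed by 0.17 (limma adjusted p = 0.774) and Nrg2, another neuregulin, by 0.09 (0.933). Egf itself and Epgn (epigen) lay under the filter, with means of 4.13 and 3.38 in Atgl KO/cTg against 3.96 and 3.38 in wt/cTg. Without wt/cTg pool 4 the differences were 0.13 for Nrg4, 0.03 for Nrg2, 0.09 for Egf and 0.06 for Epgn.

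Of the shedding genes, the proteases that release the ligands and their regulators, 12 of 14 were tested and none passed. Of the 12, 7 lay below 0 and 5 above, with a median of -0.02. Adam17, the main protease of Tgfa and Hbegf, read 7.83, 7.55, 7.68 and 7.88 in Atgl KO/cTg pools and 8.06, 7.86, 8.01 and 7.91 in wt/cTg pools, so that only Atgl KO/cTg pool 4 reached the wt/cTg range. Its difference was -0.22 (SE 0.10, limma adjusted p = 0.615). Timp3, an inhibitor of Adam17, read 10.02, 10.10, 10.61 and 10.63 in Atgl KO/cTg pools and 10.81, 10.69, 10.67 and 10.97 in wt/cTg, without overlap, and differed by -0.45 (SE 0.14, limma adjusted p = 0.446). Adam19, a protease that can cut neuregulins, was also without overlap, at -0.35 (limma adjusted p = 0.456), and Adam8 differed by 0.24 (limma adjusted p = 0.765), or by 0.38 without Atgl KO/cTg pool 1 and 0.12 without pool 3.

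Of the adaptors and the kinase chain below the receptors, 21 of 26 were tested, 12 above 0 and 9 below, and none passed. The genes with the smallest p were Ptpn11, the phosphatase SHP2 that carries the signal to RAS (-0.35, limma adjusted p = 0.576), and the kinase Akt1 (0.18, limma adjusted p = 0.630). The kinase Araf differed by 0.13 and the adaptor Gab2 by -0.14 (limma adjusted p = 0.764 and 0.769). Without Atgl KO/cTg pool 1 the difference was -0.22 for Ptpn11 and -0.078 for Gab2, and without wt/cTg pool 3 it was 0.088 for Araf. The other 5 were not analysed here.

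Of the receptor inhibitors and feedback genes, 24 of 25 were tested, 9 above 0 and 15 below, and none passed. Usp8, an enzyme that removes ubiquitin from internalised Egfr, read 8.61, 8.57, 8.62 and 8.76 in Atgl KO/cTg pools and 8.85, 9.01, 8.99 and 8.98 in wt/cTg pools, without overlap, and differed by -0.32 (SE 0.08, limma adjusted p = 0.293). Dusp4, a phosphatase that switches off MAP kinases, differed by 0.39 (SE 0.13, limma adjusted p = 0.496), with its lowest Atgl KO/cTg pool (5.785) next to the highest wt/cTg pool (5.783). Dusp6, another MAP kinase phosphatase, named after its values were seen, was without overlap in the other direction, at -0.22 (limma adjusted p = 0.579). The membrane protein Lrig1, which promotes breakdown of the receptors, and Errfi1, which blocks their kinase domain, had differences of opposite sign, 0.37 and -0.35, each with overlapping groups and a limma adjusted p of 0.547.

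Of the transcripts known to respond to MAP kinase signalling, 16 of 20 were tested, 12 above 0 and 4 below, with a median of 0.12. Etv5, a transcription factor, read 9.58, 9.74, 9.57 and 9.61 in Atgl KO/cTg pools against 10.21, 10.87, 10.59 and 10.87 in wt/cTg pools, and fell by 1.01 (limma adjusted p = 0.0294). It is also on the type 2 list, whose 12 markers were all lower in Atgl KO/cTg. Of these 12, 4 passed over all genes, Etv5 among them, against 0.0991% of all tested genes in either direction. Ptgs2, the inducible cyclooxygenase, read 8.87, 8.74, 8.63 and 8.93 in Atgl KO/cTg pools against 8.07, 7.996, 8.34 and 8.17 in wt/cTg pools, and rose by 0.65 (limma adjusted p = 0.0477). The call of Etv5 was lost without Atgl KO/cTg pool 1, 3 or 4 and without wt/cTg pool 2, 3 or 4 (adjusted p 0.0854 to 0.211), and that of Ptgs2 whichever pool was left out (adjusted p 0.0715 to 0.226), while the differences stayed between -1.15 and -0.93 and between 0.60 and 0.72. Plaur, the urokinase receptor, differed by 0.44 without overlap (limma adjusted p = 0.314), and Fosb, a subunit of AP-1, by 0.26 (limma adjusted p = 0.524).

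**Figure D4:**
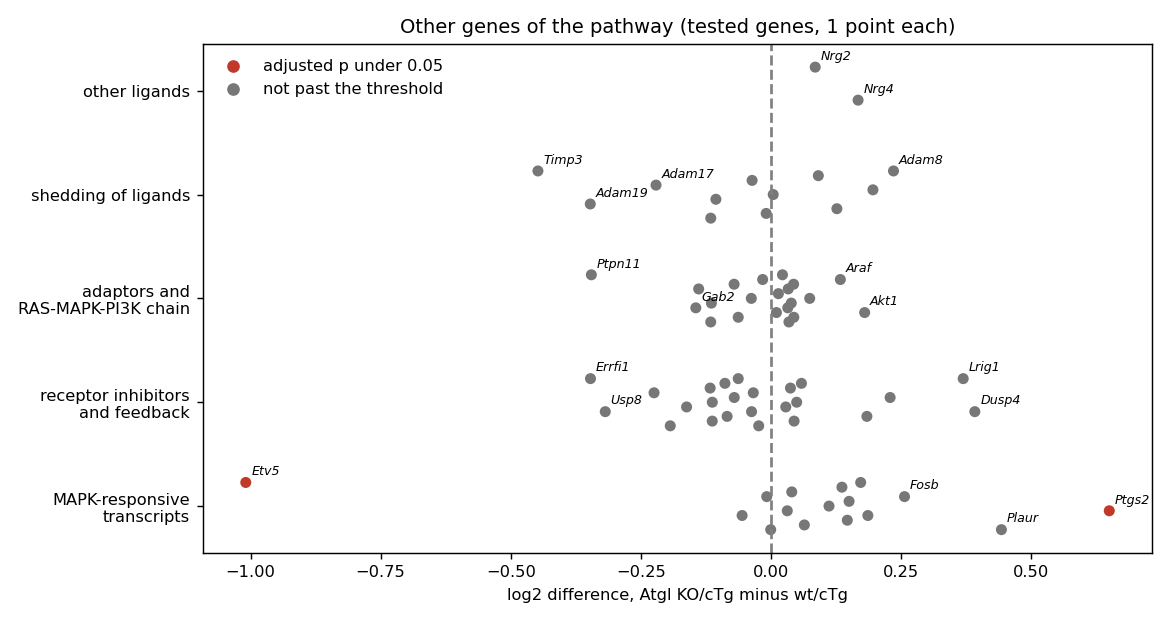
Log2 difference (Atgl KO/cTg minus wt/cTg, horizontal axis) of the 75 tested genes on the 5 pathway lists (rows), 1 point per gene, with the vertical place within a row arbitrary. The 2 genes past the threshold, Etv5 at -1.01 and Ptgs2 at 0.65, are in red, and the other points lie between -0.45 and 0.44.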

How the data were processed

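Transcripts of 8 pools, grouped by the genotype label, were read on mouse gene arrays, after DNase treatment, NuGEN Ovation Pico amplification and biotin labelling per the labels' protocols. The authors deposited log2 signals per probe set; the scale was read from the values (1.85 to 13.5), and their software and normalization are not given in the sources used. Of 41345 probe sets, 23521 had 1 gene symbol, 1814 several and 16010 none. The number of arrays limits the precision, and p-values measure the spread between pools. No pair of arrays was identical.

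Genotypes were tested over 13112 genes in limma 3.58.1 (R 4.3.3; lmFit, eBayes with a variance trend, two-sided, Benjamini-Hochberg, threshold 0.05), with steps tested on simulated data. Members and lists were chosen with earlier results of these data known. Named besides the members were Pnpla2, the 4 genes of each pathway list with the smallest p and any that passed, bright markers, sex-linked transcripts, and the 3 genes most like the leading receptor and ligand. Alternatives covered filter, variance prior, normalization, centring, weights, probe sets, age, a sex-linked score (without Ddx3y, which had no probe set of its own symbol alone), threshold and each pool left out; the other Ereg probe set was added after the data were seen. Figures used matplotlib 3.10.9.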

Additional observations from a re-analysis of the deposited data

Results flagged for a closer look

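Within groups of 4 pools, 3 of 60 groups examined (30 genes in each genotype) held 1 pool far from the other 3, measured by its gap to the nearest pool as a share of the group's range; chance alone flags about 1 in 20 groups. Tgfa read 5.83 in Atgl KO/cTg pool 3, against 6.18 to 6.20 in the other Atgl KO/cTg pools. Usp8 read 8.85 in wt/cTg pool 1, against 8.98 to 9.01 in the other wt/cTg pools. Fosb read 7.76 in Atgl KO/cTg pool 1, against 7.88 to 7.89 in the other Atgl KO/cTg pools.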

How the results depend on the processing

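No member passed in any of the 18 alternative fits or at an adjusted p under 0.1, with a smallest limma adjusted p of 0.594. Egfr (-0.20 to -0.07), Erbb2 (0.06 to 0.18), Erbb3 (0.04 to 0.16), Tgfa (0.12 to 0.28) and Btc (0.17 to 0.28) kept their direction in all of them. When each pool was left out, the sign turned for Erbb4 (-0.043 to 0.097), Ereg (-0.074 to 0.11), Hbegf (-0.15 to 0.020), Nrg1 (-0.20 to 0.22), Nrg2 (-0.0025 to 0.16) and Epgn (-0.093 to 0.068). Ereg turned to -0.039 after quantile normalization, -0.029 with median centring and -0.078 with array weights, Nrg1 to 0.12 with array weights, and Epgn to 0.021 with the sex-linked score; the cause was not tested. Of all genes, 13 passed (2 higher, 11 lower), against 7 without the level filter, 1 without the variance trend, 1 after quantile normalization, 23 with array weights, 7 with age, 20 at the looser threshold, and 1 to 25 when each pool was left out. Median centring called 1 higher and 18 lower. Of the pathway genes, 2 passed, against 1 without the level filter, 0 without the variance trend, 0 after quantile normalization, 1 with median centring, 1 with age, 1 with the sex-linked score, and 0 to 1 when each pool was left out. No paired analysis was made because the labels state no pairing of the pools. The sample titles hold number ranges in brackets, which were not used. A stricter level filter left no value for the members Erbb4, Ereg and Nrg1.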
